A study of Mus musculus with 2 samples.

Results

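The TET2 peaks at 10 genes, the glutathione peroxidase genes Gpx1 to Gpx8 and the GTPase genes Drg1 and Drg2, are described here. Gpx3 and Drg1 on chromosome 11 were chosen by the −log10 p of their peaks among peaks in sequence found once in the genome assembly. The size of those peaks and their single copy are therefore descriptions and were not tested. The other 8 genes are their relatives. These are 10 of the 21951 protein-coding genes of GENCODE M21, and 7 of the 14103 deposited peaks had their midpoint in one of them or within 3 kb of it. TET2 was mapped by chromatin immunoprecipitation and sequencing in adipocytes grown from stem cells of mouse inguinal white fat and differentiated in culture with IBMX, dexamethasone and insulin. The labels name no genotype, strain or age for these cells. There was 1 TET2 library and 1 input library, so no value has a replicate and nothing was tested between conditions. The peak list gives positions and the −log10 p of each peak from the authors' peak caller. A larger value means stronger evidence of an excess of fragments over the local background, which need not be a larger excess. The list gives no read counts, and the methods state only how much sequence was obtained, so the depth behind a single peak is unknown.

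TET2 is an enzyme that oxidises 5-methylcytosine, mostly at CpG dinucleotides, as a step towards removal of DNA methylation. Glutathione peroxidases reduce hydrogen peroxide and lipid peroxides at the expense of glutathione. Several of them are selenoproteins, in which a UGA codon is read as selenocysteine with the help of a stem-loop in the 3′ untranslated region (UTR). Gpx3 is the secreted, plasma member and is made in adipose tissue among others. Drg1 and Drg2 are related GTPases with their own stabilising partners, and both have been linked to translation and cell growth.

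The sequences below show the base composition on which the peaks differ. They were read from GRCm38, 5′ to 3′ on the strand of the gene, with every CpG in capitals. The coding part of the last exon of Gpx3 (chr11:54909437-54909655, plus strand), inside its large peak, held 8 CpG in 219 bp. The first coding bases of Gpx3 with the start of intron 1 (chr11:54902966-54903204, plus strand), inside its small peak, held 14 in 239 bp. The part of another large peak in the first intron of Sfi1 (chr11:3193110-3193359, minus strand), which an alternative Drg1 transcript spans, held 20 in 250 bp. The 250 bp before the Drg2 start site (chr11:60454341-60454590, plus strand, from RefSeq), where no peak was called, held 12.

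Gpx3 last exon, coding: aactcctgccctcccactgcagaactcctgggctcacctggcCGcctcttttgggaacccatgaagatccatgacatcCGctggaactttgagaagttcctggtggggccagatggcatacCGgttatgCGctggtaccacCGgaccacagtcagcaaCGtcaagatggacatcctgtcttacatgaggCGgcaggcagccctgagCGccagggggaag
Gpx3 first exon and intron: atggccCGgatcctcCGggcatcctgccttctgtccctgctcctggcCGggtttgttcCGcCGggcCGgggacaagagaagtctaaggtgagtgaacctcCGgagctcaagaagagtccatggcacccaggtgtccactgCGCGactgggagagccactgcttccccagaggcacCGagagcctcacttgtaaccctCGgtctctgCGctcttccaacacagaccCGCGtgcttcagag
Sfi1 intron, spanned by Drg1-206: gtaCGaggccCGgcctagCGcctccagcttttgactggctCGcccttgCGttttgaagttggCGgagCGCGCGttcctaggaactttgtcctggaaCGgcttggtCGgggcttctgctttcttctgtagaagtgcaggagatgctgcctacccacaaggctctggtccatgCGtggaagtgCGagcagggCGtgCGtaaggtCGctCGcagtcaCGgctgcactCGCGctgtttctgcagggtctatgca
Drg2 upstream: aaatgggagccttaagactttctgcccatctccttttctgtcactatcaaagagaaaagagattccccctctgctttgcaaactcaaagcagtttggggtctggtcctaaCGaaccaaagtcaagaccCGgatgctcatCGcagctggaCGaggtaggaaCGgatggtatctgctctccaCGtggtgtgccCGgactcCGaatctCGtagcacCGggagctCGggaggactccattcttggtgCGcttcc

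Of the 10 genes, 4 had a peak in the gene or within 3 kb (Gpx3, Drg1, Gpx1 and Gpx7), against 38.2% of all protein-coding genes. Gpx3 and Drg1 entered by their peaks, and of the other 8 genes 2 had one. The same 4 genes had a peak within 1 kb of one of their start sites, where 24.6% of all protein-coding genes had one. Counts over so few genes are a description only.

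Gpx3 (ENSMUSG00000018339, chr11:54902453-54910377, plus strand) carried a large peak at its far end and a small one at its start. The large peak (chr11:54909307-54910342) was 1036 bp long with a −log10 p of 105, and the small one (chr11:54902807-54903204) was 398 bp long with a −log10 p of 8.52. Over all peaks the median length was 426 bp and the median −log10 p 6.21. By −log10 p the large peak was number 12 in the list and number 1 of the 915 on chromosome 11, which is what chose it. By length it was number 89 of all peaks and number 3 on chromosome 11.

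The large Gpx3 peak lay over the last exon rather than at a start site. Its midpoint was 7052 bp from the start of the main transcript (Gpx3-201) and 6898 bp from the nearest annotated start of the gene. It began 130 bp before the last exon, in the intron, ran through all 219 coding bases of that exon and 687 of the 722 bases of the 3′ UTR, and ended 35 bp before the end of the transcript. Thus 96.3% of the exon lay in the peak and 87.5% of the peak lay in the exon. The selenocysteine codon, in an earlier exon (chr11:54907256-54907258), was outside it and 2567 bp from its midpoint. The small peak lay over the first exon, with 159 bp in the 5′ UTR, 87 coding bp and 152 bp in intron 1.

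A peak over a whole last exon was rare in the list. Counts of such exons, with the limits given here, were added after the data were seen. Among 15032 coding genes with at least 2 exons and a last exon of at least 500 bp, 984 had a peak touching that exon and 8 had at least 90% of it in a single peak. Gpx3 had the largest −log10 p of these 8, and the next was Ly6a at 11.5, a gene taken up here after its value was seen. With the minimum lowered to 80% of the exon, 21 genes qualified, Gpx3 stayed the highest, and the next value was 19.1. With 50%, 172 genes qualified and 1 of them exceeded Gpx3, at 116. The first place of Gpx3 also depended on the minimum of 500 bp for the last exon. Without that minimum, 44 of 20391 coding genes with at least 2 exons had at least 90% of the last exon in a peak. The largest −log10 p among these 44 was above that of Gpx3. The −log10 p of Gpx3 had chosen the gene, so its place in this order carries no test.

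**Figure D1:**
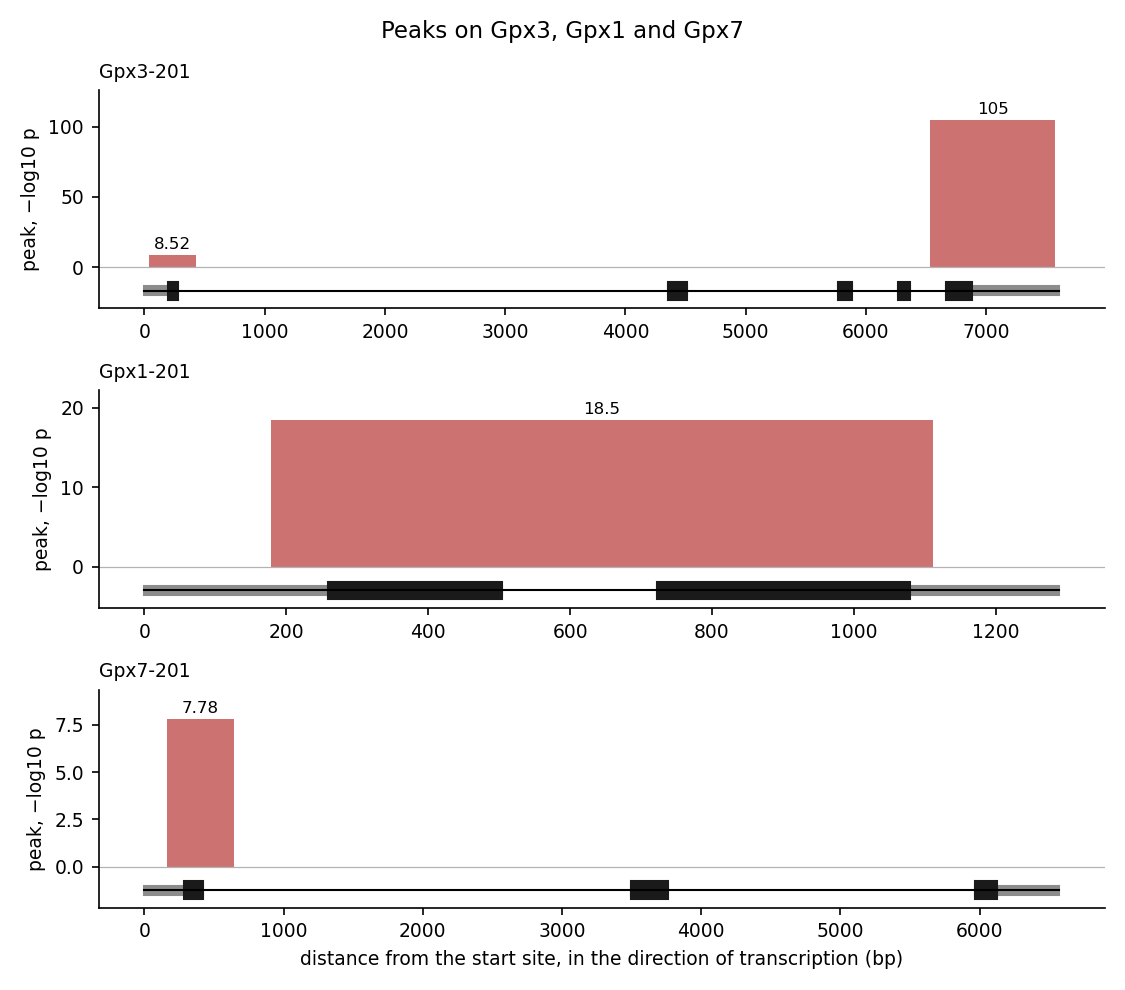
Deposited peaks on the main coding transcripts of Gpx3, Gpx1 and Gpx7. The horizontal axes give the distance from the start site in bp, bar width is peak length, bar height is −log10 p (each panel has its own scale), grey boxes are exons and black boxes their coding parts. The Gpx3 peak of 105 covers the last exon and the one of 8.52 the first, the Gpx1 peak of 18.5 covers most of the short gene, and the Gpx7 peak of 7.78 lies over its first exon.

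The large Gpx3 peak was poor in CpG for its GC content. Its GC content was 56.9%, against a median of 59.5% over all peaks. It held 23 CpG, or 2.22 per 100 bp, and its CpG ratio (CpG found over those expected from its C and G) was 0.28. The small peak at the start of the gene held 6.53 CpG per 100 bp, with a ratio of 0.66. Peaks within 1 kb of a start site had a median ratio of 0.77 and the others of 0.34, so the large peak lay in the range of peaks away from start sites and the small one in the range of promoter peaks.

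The sequence of the large Gpx3 peak was single in the assembly except for a distant resemblance to a relative. Of its 1006 overlapping 31-mers, 10 were found more than once in GRCm38, and blastn found no second match of at least 100 bp and 90% identity. With looser limits (50 bp and 80%) there was 1 other match, of 141 bp and 81.6% identity, at chr13:21287385-21287525 in the last exon of Gpx5. No peak was called there, and the peak nearest to Gpx5 had its midpoint 105786 bp away. Over all peaks, 56.9% had at least 99% of their 31-mers once (exact 95% interval 56.1% to 57.8%). Of the 23 peaks with a −log10 p of at least 50, 4 did, namely those at Gpx3 and at Sfi1 and Drg1 and 2 peaks on chromosome 17 nearest to Gm26917. These counts cover copies in the assembly only. Sequence with further copies that the assembly lacks would also count as single. The peaks next to Gpx3 in the order of −log10 p, both on chromosome 9 with values of 105 and 103, were repeat-masked over 95.9% and 98.0% of their length, and the Gpx3 peak over 6.37%.

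Within 100 kb of the large peak there were 2 others, the small Gpx3 peak and one at the start of Hint1 (−log10 p 5.01), where the median over all peaks was 1 and the third quartile 2. The next peak downstream was 200167 bp away. Tnip1, which runs towards Gpx3 on the minus strand and ends 408 bp from it, had no peak at its own start sites. Its single peak within 3 kb was the large peak of Gpx3.

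Gpx1 (chr9:108338903-108340343, plus strand), the abundant intracellular peroxidase, had 1 peak that covered most of this short gene. The peak (chr9:108339233-108340165) was 933 bp long, number 182 of all peaks by length, with a −log10 p of 18.5. It took in 603 coding bp, 218 bp of intron, 80 bp of 5′ UTR and 32 bp of 3′ UTR, and 68.6% of the last exon. Unlike that of Gpx3, the selenocysteine codon of Gpx1 lay inside the peak (chr9:108339421-108339483, plus strand, with the codon in capitals): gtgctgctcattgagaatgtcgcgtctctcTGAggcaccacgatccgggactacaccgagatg. The peak had a GC content of 56.4% and a CpG ratio of 0.76, and there was 1 other peak within 100 kb.

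Gpx7 (chr4:108400390-108406961, minus strand), a peroxidase of the endoplasmic reticulum without selenocysteine, had 1 peak of ordinary size at its start. The peak (chr4:108406315-108406801) was 487 bp long with a −log10 p of 7.78, and its midpoint lay 403 bp into the main transcript. It had 124 bp in the 5′ UTR, 135 coding bp and 228 bp in the first intron, with a GC content of 68.2% and a CpG ratio of 0.80. No other peak lay within 100 kb.

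The remaining Gpx genes had no peak within 3 kb. The nearest midpoint was 26904 bp from Gpx2, the enzyme of the gut epithelium, 33403 bp from Gpx4, which reduces lipid hydroperoxides in membranes, and 48617 bp from Gpx8, of the endoplasmic reticulum. For Gpx5 and Gpx6, neighbours on chromosome 13 expressed in the epididymis and the olfactory epithelium, the nearest peak was the same one, 105786 bp and 131482 bp away. Of the 4 Gpx genes with an annotated selenocysteine codon (Gpx1 to Gpx4), 2 had a peak, one of them Gpx3, which was chosen by its peak, and of the 4 without, 1 did. Over all protein-coding genes the share was 38.2%.

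The large peak assigned to Drg1 did not lie at the Drg1 promoter or in its coding transcript. Drg1 (ENSMUSG00000020457, minus strand) spans chr11:3187360-3266415 in GENCODE because of Drg1-206, a transcript marked for nonsense-mediated decay that runs to chr11:3187360. The coding transcript Drg1-201 ends at 3249907, as does the gene in RefSeq (chr11:3249907-3266464). The large peak (chr11:3192882-3193851) was 970 bp long with a −log10 p of 80.2, number 16 of all peaks and number 2 on chromosome 11. Its midpoint was 73027 bp downstream of the coding start site, beyond the gene Eif4enif1 (chr11:3202392-3244588), which lies within the span of Drg1-206.

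The nearest start sites to the large peak were those of Sfi1, a centrosomal protein gene on the minus strand. The midpoint was 41 bp inside the nearest Sfi1 transcript. Against Sfi1-201, 388 bp of the peak lay upstream of the start, 104 bp in the 5′ UTR and 478 bp in the first intron, and all 970 bp were intron of Drg1-206. RefSeq places Sfi1 starts further upstream, with 3 of its 4 curated transcripts starting at 3200652 and 1 at 3193603. The midpoint was 7286 bp inside the transcripts starting at 3200652. Because of the GENCODE start sites inside it, the large peak is called the Sfi1 start peak in what follows. It was 1 of 3 peaks within 1 kb of a GENCODE start site of Sfi1. By length it was number 137 of all peaks, number 97 of those within 1 kb of a start site and number 7 on chromosome 11.

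The remaining peaks of the Drg1 span were smaller. One (chr11:3199524-3200094), with a −log10 p of 18.3 and a length of 571 bp, was again intronic in Drg1-206 only, 66584 bp downstream of the coding start, and its midpoint lay 843 bp inside the longer RefSeq Sfi1 transcripts. The other (chr11:3266325-3266751) was the peak at the Drg1 promoter itself. It was 427 bp long with a −log10 p of 5.54, below the median of all peaks, and its midpoint was 145 bp upstream of the coding start, with 69 bp in the 5′ UTR. By RefSeq spans, or by the longest coding transcript alone, this small peak was the 1 peak left at Drg1.

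The Sfi1 start peak was the highest of a row of peaks in partly duplicated sequence. From chr11:3101037 to 3200094 there were 9 peaks in 99058 bp, with −log10 p from 4.22 to 80.2 and a median of 18.3. Within 100 kb the Sfi1 start peak had 10 neighbours, against a median of 1 over all peaks, and the peak at the Drg1 promoter had 5. Of the 9 peaks, 6 had fewer than 50% of their 31-mers once, down to 8.29%. From chr11:3125288 to 3184327, 94.7% of the bases matched an unplaced contig of the same assembly at 95.8% to 98.2% identity. The match ended 8555 bp before the Sfi1 start peak. All 31-mers of that peak, of the peak of 18.3 and of the Drg1 promoter peak were found once, and blastn found no second match of at least 100 bp and 90% identity for any of them. The second-highest peak of the row, at 40.7, was single for only 17.4% of its 31-mers. The part of the duplication in the −log10 p of these peaks was not tested.

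**Figure D2:**
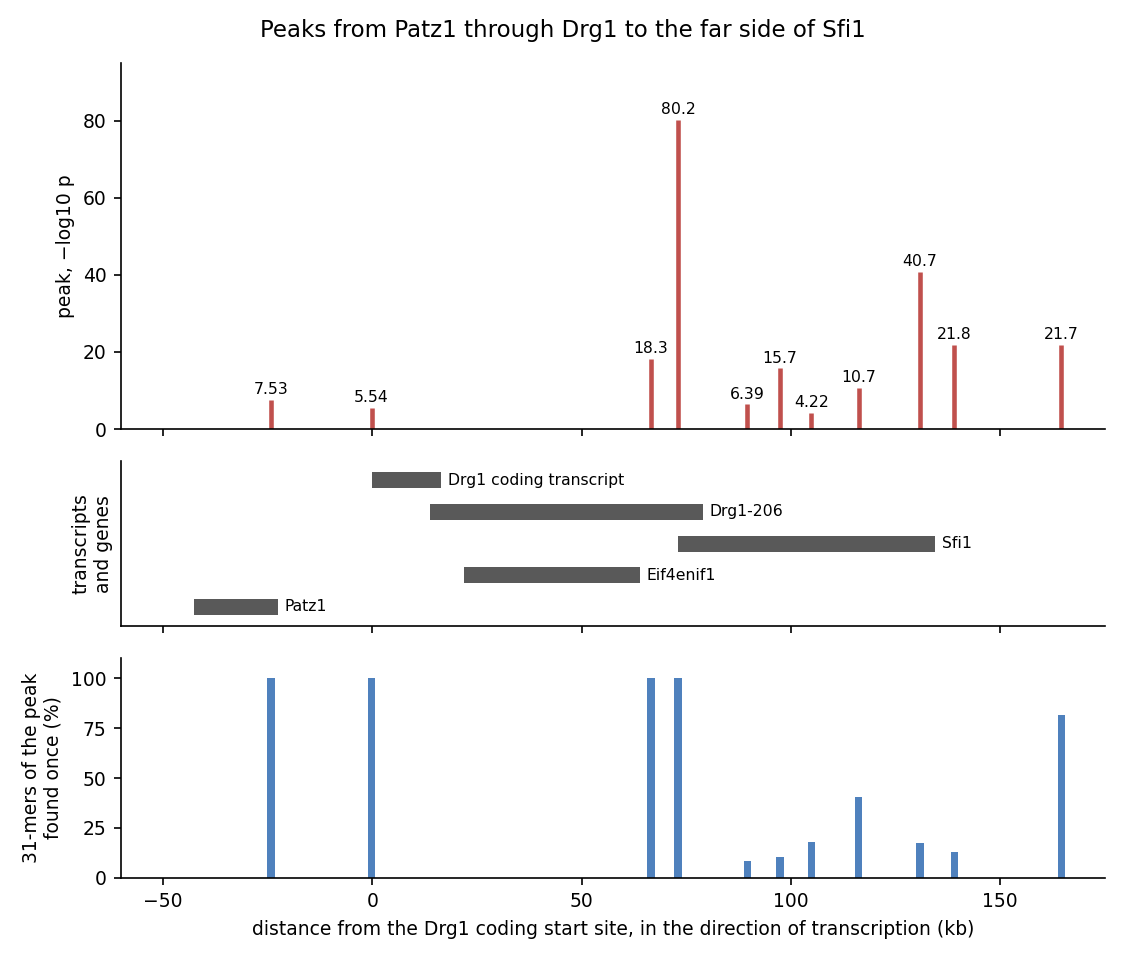
Peaks around Drg1 by distance in kb from its coding start site (minus strand, so that positive is downstream). Upper panel, −log10 p of each of 11 peaks. Middle panel, spans of the coding Drg1 transcript, Drg1-206 and neighbouring genes. Lower panel, percent of the 31-mers of each peak found once in GRCm38. The peak of 80.2 stands at GENCODE start sites of Sfi1, 73.0 kb from the Drg1 start. Of the 7 peaks beyond it 6 have shares of single 31-mers under 50%, the farthest being the exception at 81.4%.

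In composition the 3 peaks of the Drg1 span differed. The Drg1 promoter peak had a GC content of 68.1% and a CpG ratio of 1.03, exceeded by 3.91% of the peaks within 1 kb of a start site. The Sfi1 start peak had a GC content of 55.4%, below that of 92.0% of those peaks, but a CpG ratio of 0.78, close to their median. The peak of 18.3 had a GC content of 44.1% and a ratio of 0.14, and 32.7% of it was repeat-masked.

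**Figure D3:**
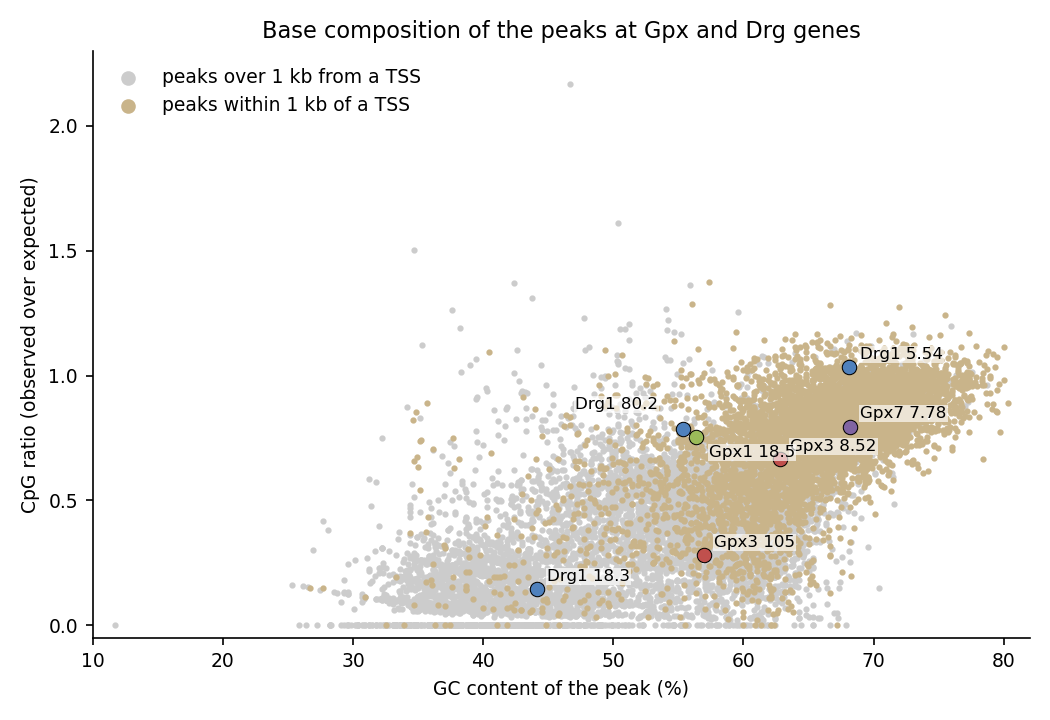
GC content in percent (horizontal) and CpG ratio (vertical) of all 14103 peaks, with the 7 peaks at Gpx3, Drg1, Gpx1 and Gpx7 as large points labelled with their −log10 p. The peaks at the start sites of Drg1, Gpx7 and Gpx3 (5.54, 7.78 and 8.52) lie among the promoter peaks, and the Gpx3 peak of 105 lies below them at a ratio of 0.28.

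Drg2 (chr11:60454591-60468754, plus strand) had no peak within 3 kb. The nearest midpoint was 9429 bp beyond its end, with a −log10 p of 4.79 (chr11:60477996-60478370), inside the neighbouring gene Myo15. A window of 10 kb on either side would assign that peak to Drg2, bringing the count to 5 of 10 genes.

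The longer of the 7 peaks had the larger −log10 p. The 3 longest, at Gpx3 (1036 bp), the Sfi1 start (970 bp) and Gpx1 (933 bp), had −log10 p of 105, 80.2 and 18.5, and the next, of 571 bp, had 18.3. The 3 shortest were those at the start sites of Gpx3 (398 bp), Drg1 (427 bp) and Gpx7 (487 bp), at 8.52, 5.54 and 7.78, so that the shortest was out of order. Both measures come from the same peak call.

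**Figure D4:**
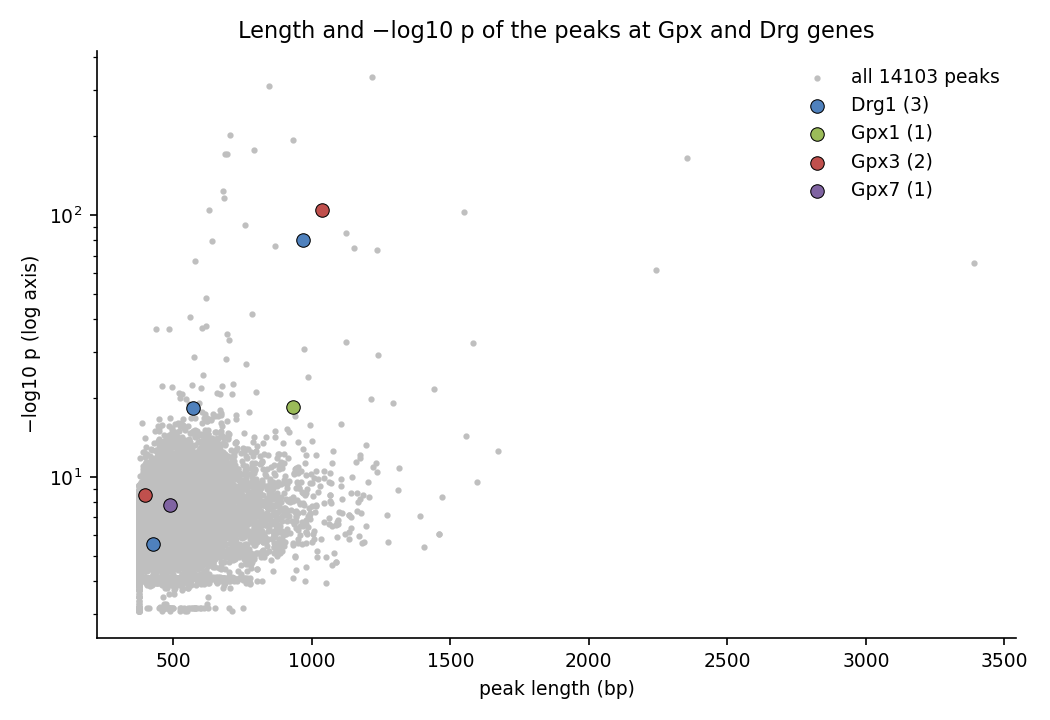
Peak length in bp against −log10 p (log axis) for all 14103 peaks in grey, with the peaks at Gpx3 (2), Drg1 (3), Gpx1 (1) and Gpx7 (1) in colour. The Gpx3 peak of 1036 bp and the Drg1-span peak of 970 bp stand above the cloud, and the peaks at the start sites lie inside it.

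The CpG ratio around the start site did not by itself separate the genes with a promoter peak from those without. Within 500 bp of the main start site it was 0.88 at Drg1, 0.81 at Gpx4, 0.68 at Gpx7, 0.67 at Drg2, 0.66 at Gpx1, 0.64 at Gpx8 and 0.55 at Gpx3. It was 0.27 at Gpx5, 0.25 at Gpx2 and 0.09 at Gpx6. Of the 6 genes at 0.6 or above, 3 had a promoter peak, and of the 4 below, 1 did. Over all protein-coding genes, a promoter peak was present in 39.1% of those at 0.6 or above and in 11.6% of those below.

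**Figure D5:**
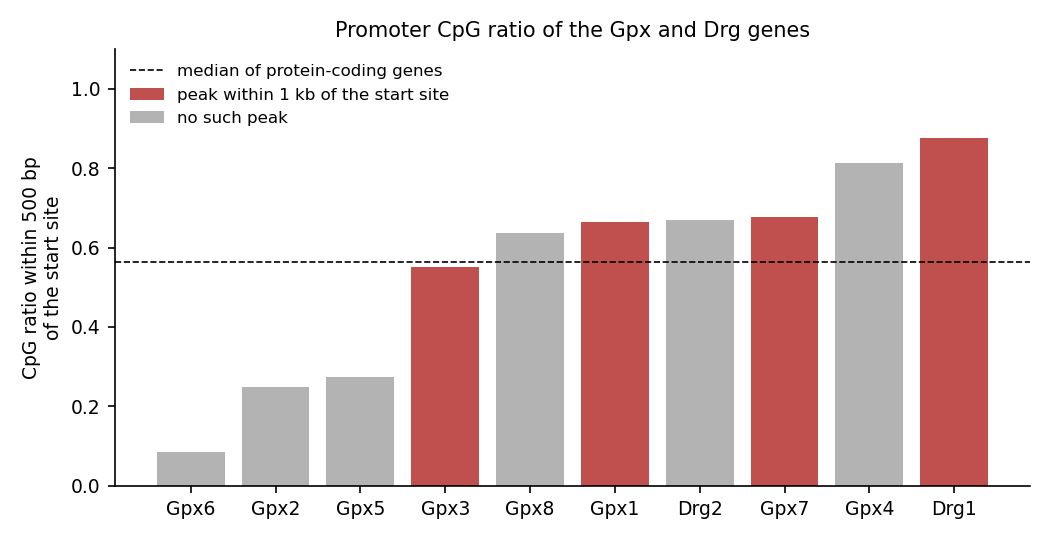
CpG ratio (observed over expected, no unit) within 500 bp of the main start site of each of the 10 genes, in red where a peak midpoint lay within 1 kb of it. The dashed line is the median of protein-coding genes, 0.56. Gpx4, Drg2 and Gpx8 lie above it without a peak, and Gpx3 lies just below it with one.

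Short motifs were searched on both strands within 100 bp of each midpoint. GGGCGG, the core bound by SP1, was found once at the Drg1 promoter peak and once at the Gpx1 peak. It was in 26.5% of all peaks and in 44.8% of those within 1 kb of a start site, where both lay. TGACNNNGC, the core of the antioxidant response element, was found once, at the Drg1 promoter peak. It was in 7.69% of all peaks and in 10.0% of those within 1 kb of a start site. TTGCNNAA, a C/EBP core, was in none of the 7 peaks and in 4.37% of all peaks. ACGTG, shared by hypoxia response elements and E-boxes, was found at the large Gpx3 peak alone among the 7, at 2 separate places, and in 13.5% of all peaks. At least 2 such places were found in 1.68% of all peaks. One of the 2 was a palindromic CACGTG in the 3′ UTR (chr11:54909817-54909838, plus strand, motif in capitals): actgtggaCACGTGacaattgt. A match is a stretch of letters only and shows no bound factor.

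Related enzymes outside the Gpx family had peaks of smaller −log10 p than the large Gpx3 peak, which was chosen by that value. The contrast in −log10 p therefore carries no test. Of 19 glutathione and peroxide enzymes, 9 had a peak within 3 kb (47.4%, against 38.2% of all protein-coding genes), with the largest −log10 p of each gene between 5.13 and 12.2. They were Cat, Gclc, Prdx4, Sod2, Sod3, Txn1, Txn2, Txnrd2 and Txnrd3, and 7 of the 19 had a peak within 1 kb of a start site, against 24.6% of all protein-coding genes. Sod3, the secreted superoxide dismutase, had no promoter peak but one of 1173 bp, longer than the large Gpx3 peak, over its coding sequence and 3′ UTR (607 and 566 bp), with a −log10 p of 11.8. Cat, which encodes catalase, had its larger peak over its last coding bases and 3′ UTR too (63 and 488 bp), at 8.36. Txnrd3, a thioredoxin reductase, had a peak over 32 coding bp and 343 bp of 3′ UTR, at 6.21.

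Of 9 genes for selenoprotein synthesis, 4 had a peak (44.4%, again beside 38.2% of all protein-coding genes), namely Secisbp2, Sephs2, Eefsec and Trnau1ap. The largest −log10 p, 12.7, was over the start of Secisbp2, whose product binds the selenocysteine stem-loop. Of 3 partners and modifiers of the Drg GTPases 1 had a peak. Zc3h15, the partner of Drg1, had one with a −log10 p of 6.06, with all 380 bp in an intron of the main transcript. The midpoint of that peak was 14831 bp from the main start site but within 1 kb of another annotated start of Zc3h15. Rwdd1, the partner of Drg2, and Jmjd7, which hydroxylates both GTPases, had none within 3 kb.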

How the data were processed

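The authors filtered paired reads, aligned them with bowtie1 and called peaks with MACS2 (2.1.0 in the submitters' processing notes) on the TET2 library against the input. The deposited values are peak intervals and a value per peak, read as a −log10 p-value despite the conflict with the stated cutoff. They were used as deposited, to describe and rank peaks within the list. Start and end were both counted as part of the peak. The labels name mm10 (GRCm38) and the methods GRCm39; positions were read on GRCm38, where they fit, and none was converted. Genes came from GENCODE M21, with RefSeq (GRCm38.p6) as an alternative. The main transcript was the one with the longest coding sequence.

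A peak was placed by its midpoint, in a gene or within 3 kb of it. Copies were counted with blastn 2.17.0 and with exact 31-mers over the chromosomes and unplaced contigs. Sequence was read with pysam 0.24.0, tables were handled in Python 3.11.15 with pandas 2.3.3 and numpy 2.4.6, intervals came from scipy 1.17.1 and figures from matplotlib 3.10.9. The counting steps were tested on simulated data. With 1 library no test was run. Intervals cover counting error only. Named genes were the 10 members, genes sharing or flanking their peaks, and those with a peak in 3 lists of related genes. The members and lists were chosen with earlier results of these data known. The sequence of 1 region is not reported here.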

Additional observations from a re-analysis of the deposited data

How the results depend on the processing

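No paired analysis was possible because there was 1 TET2 library and 1 input library, and no replicate could be left out. Of 45 alternatives, 32 moved no value beyond its limit (1.5 times, or the 95% counting interval for base composition). The count of genes with a peak was 3 to 5 of 10 under all 8 alternatives. With peaks of −log10 p of at least 10 alone, 4.81% of protein-coding genes had one, and with RefSeq spans or the longest coding transcript alone, Drg1 kept 1 peak in place of 3. Within 200 bp of the midpoint the GC content was 50% at the large Gpx3 peak and 65% at the Sfi1 start peak, so both depend on the window. With looser match limits the Gpx3 peak had 2 matches, itself included. Neighbours within 500 kb numbered 7 for Gpx3 and 16 for the Sfi1 start peak, which had 5 within 50 kb. On chromosome 11 alone the length ranks were 3 and 7. The count of last exons in a peak was added after seeing the data, with its limits of 90% and 500 bp as well as the alternatives. The numbers of genes with at least 80% or 50% of their last exon in a peak were 21 and 172. With no read counts, the precision of a single peak cannot be given.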
